A study of Drosophila melanogaster with 6 samples.

Results

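Transcripts of 7 sugar and trehalose transporters were compared between *Pyk* knockout and control larvae of *Drosophila melanogaster*. The genes were *Glut1*, *Tret1-1*, *Tret1-2*, *sut1*, *sut2*, *sut3* and *sut4*, taken by their FlyBase symbols from the 17869 gene rows of the count tables, and each symbol matched 1 gene. *Pyk* encodes pyruvate kinase, the enzyme of the last step of glycolysis. The knockouts (*Pyk* 23/31) carried 2 different CRISPR deletions that shift the reading frame in the first coding exon, and the controls (*Pyk* 23/+) carried the *Pyk* 23 deletion over a wild-type copy, so that both genotypes shared 1 mutant copy. RNA of whole second-instar (L2) larvae was measured in 3 libraries per genotype, with poly(A) selection and the strand of the RNA kept. The methods for larval collection state that both sexes were used. The RNA methods give neither the sex nor the number of larvae pooled per library. A library of whole animals mixes all tissues, so that fewer cells of a type and less RNA per cell cannot be told apart.

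In insects the main sugar of the hemolymph is trehalose, which the fat body makes from glucose and releases. Cells take up trehalose or glucose through facilitative carriers of the SLC2 family, membrane proteins that let a sugar move down its gradient, and trehalase splits trehalose into glucose for hexokinase. *Tret1-1* encodes a trehalose transporter that the surface glia of the brain are known to need, and *Tret1-2* is its neighbouring paralog. *Glut1* is the fly gene named for the mammalian glucose transporter. The *sut* genes (sugar transporter) encode further carriers of the family and were named for their sequence.

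Of the 7 genes, only *Glut1* passed the test, and it was higher in the knockouts by 1.29-fold. *Tret1-1* and *sut1*, the 2 most abundant transporters of the 7, did not pass, with fold changes, knockout over control, of 0.963 (95% interval 0.811 to 1.14) and 0.909 (0.796 to 1.04). *sut2* was low, *sut3* and *Tret1-2* lay at the edge of detection, and *sut4* was counted in a single library. Of 16 other genes of the family that were tested, 10 were higher and 4 lower in the knockouts, against 22.2% and 26.0% of all tested genes.

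Each library held 12499172 to 16029304 read pairs assigned to genes in the knockouts and 11249487 to 11784491 in the controls. Levels are in CPM, the counts divided by library size after TMM scaling, and a floor of 3 counts equals 0.185 to 0.272 CPM. *Pyk* itself had 53.7, 44.0 and 57.7 CPM in the knockouts, against 465, 442 and 419 CPM in the controls. The *Pyk* level was thus lower in every knockout than in every control, and the cause was not tested. Control replicate 3 and each knockout differed from the others of their genotype by far more than sampling noise, with a chi-square of 16.2 to 31.2 per degree of freedom, while control replicates 1 and 2 were closer, at 3.63, so results are also given without replicate 3 of both genotypes. The samples are called biological replicates, with nothing on separate cultures for the RNA, so the p-values rest on the spread among these 6 libraries alone.

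The genotypes were compared by edgeR's quasi-likelihood test over the 11422 genes with at least 12 counts in all, with Benjamini-Hochberg adjustment, and a gene passed at an adjusted p of at most 0.05. Changes are log2 fold changes, knockout over control, with a standard error (SE). Of all tested genes, 48.2% passed, 22.2% higher and 26.0% lower in the knockouts, and 7.50% passed with a change of at least 2-fold. Of the 6 transporters tested, 1 was higher, 0 were lower and 5 did not pass, and 0 reached 2-fold. None was lower by DESeq2 or limma-voom either, and 0 were lower at an unadjusted p under 0.05 by any of the 3 tools. Every knockout lay above every control for 1 of the 6, where 29.4% of all tested genes showed this, and every knockout lay below every control for 0 of the 6, against 31.5% of all tested genes. Their median log2 fold change was 0.24, against 0.015 over all tested genes, and the 2 largest of the 6 values belong to *Tret1-2* and *sut3*, which had 14 and 22 counts in all. A count of 1 in 6 is near the share of all tested genes that were higher.

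*Glut1* (FBgn0264574) spans 3L:914074-993788 on the plus strand in the BDGP6.54 annotation and has 20 annotated transcripts. It had 983, 822 and 912 counts in the knockouts, against 556, 561 and 549 counts in the controls. Scaled to depth, these were 60.5, 64.1 and 64.8 CPM in the knockouts and 49.2, 48.1 and 49.8 CPM in the controls. The genotypes did not overlap, and both groups were tight, at 63.1 ± 2.31 CPM in the knockouts and 49.1 ± 0.86 CPM in the controls (SD, n = 3 each). The log2 fold change was 0.36 (SE 0.07, 95% interval 0.22 to 0.51, adjusted p = 0.0015 by edgeR). It passed under each of 14 alternatives, with log2 fold changes of 0.34 to 0.42, and was 0.35 (adjusted p = 0.0040) without replicate 3 of both genotypes. The counts are per gene, so which of the *Glut1* transcripts changed was not tested.

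*Tret1-1* (FBgn0050035, 2R:11665768-11674782, plus strand) had 199, 169 and 236 CPM in the knockouts, against 208, 213 and 207 CPM in the controls. The 3 knockouts lay on both sides of the controls and spread more widely, at 201 ± 33.4 CPM in the knockouts and 209 ± 3.06 CPM in the controls (SD, n = 3 each). The log2 fold change was -0.05 (SE 0.11, 95% interval -0.30 to 0.19), and its adjusted p of 0.70 by edgeR did not pass. Knockout replicate 2 had the lowest level of the trehalose transporter and knockout replicate 3 the highest. Without knockout replicate 2 the log2 fold change was 0.06, and without replicate 3 of both genotypes it was -0.20 (adjusted p = 0.0596), so leaving out a library could turn its sign, and it passed under 0 of 14 alternatives.

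*sut1* (FBgn0028563, 2R:8082976-8087151, plus strand) had 227, 223 and 184 CPM in the knockouts, against 226, 243 and 228 CPM in the controls. Knockout replicates 1 and 2 lay at or near the level of control replicate 1, and knockout replicate 3 lay below all other libraries. The means were 211 ± 24.0 CPM in the knockouts and 232 ± 9.44 CPM in the controls (SD, n = 3 each). The log2 fold change was -0.14 (SE 0.09, 95% interval -0.33 to 0.05, adjusted p = 0.21 by edgeR). Without replicate 3 of both genotypes the log2 fold change was -0.07 (adjusted p = 0.403). The first 382 bases of *sut1* overlap *slv* on the opposite strand, and the counts used here keep the strands apart.

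*sut2* (FBgn0028562, 2R:8087396-8089297, plus strand) had 60, 44 and 40 counts in the knockouts, against 45, 37 and 22 counts in the controls. At 3.69, 3.43 and 2.84 CPM in the knockouts and 3.98, 3.17 and 2.00 CPM in the controls, the genotypes overlapped. The log2 fold change was 0.12 (SE 0.25, 95% interval -0.44 to 0.68, adjusted p = 0.70 by edgeR), and the ratio of the pooled counts per depth was 1.09 with an exact 95% interval of 0.842 to 1.42 for counting error alone. Without control replicate 3 the log2 fold change was -0.12, and without replicate 3 of both genotypes it was -0.01.

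*sut3*, *Tret1-2* and *sut4* were counted in so few read pairs that a change of a few fold was not detectable at this depth. *sut3* (FBgn0028561, 2R:8089482-8091297, plus strand) had 7, 3 and 6 counts in the knockouts, against 3, 1 and 2 counts in the controls. Its log2 fold change was 1.02 (SE 0.64, 95% interval -0.40 to 2.44, adjusted p = 0.21 by edgeR), and the counting interval of the ratio was 0.781 to 6.55 around 2.10. *Tret1-2* (FBgn0033644, 2R:11675935-11678014, plus strand) had 8, 3 and 1 counts in the knockouts, against 1, 1 and 0 counts in the controls. The value of this *Tret1* paralog rested on knockout replicate 1, which held 8 of its 12 counts in the knockouts. The ratio of the pooled counts per depth was 4.73 with a counting interval of 1.05 to 43.5, and the log2 fold change of 2.06 (SE 1.05, 95% interval -0.30 to 4.41, adjusted p = 0.13 by edgeR) did not pass. *sut4* (FBgn0028560, 2R:10085442-10087127, minus strand) had 0, 6 and 0 counts in the knockouts and 0 in each control, which is under the filter of 12, and no fold was computed. A count of 0 allows up to 3 counts, or 0.257 to 0.272 CPM in a control. *sut4* lies inside *CG2269* on the opposite strand, which had 649 to 1259 counts per library.

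**Figure D1:**
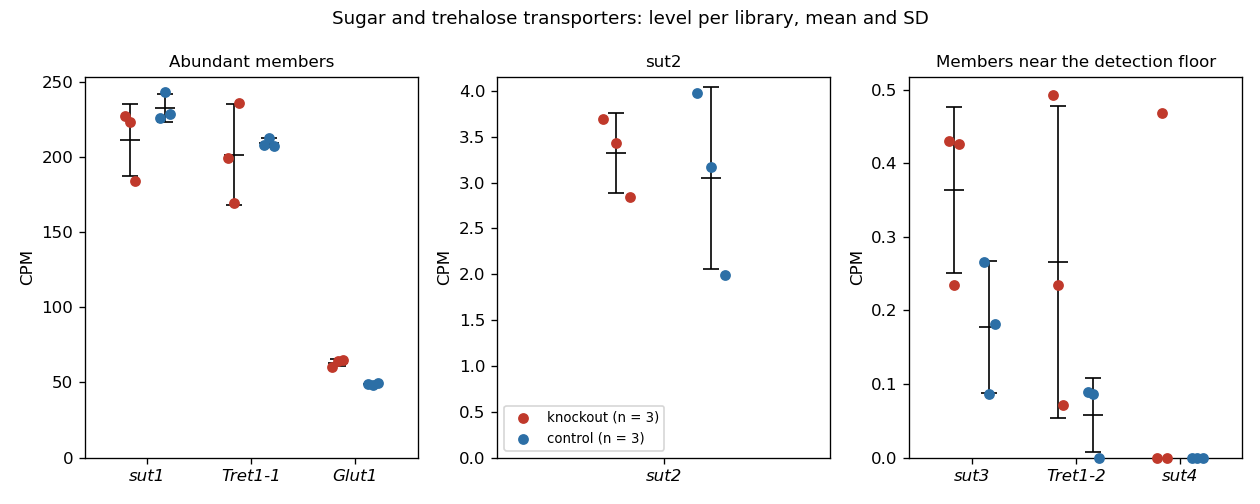
Level in CPM (counts scaled to library size) of the 7 transporters in each of 3 knockout libraries (red) and 3 control libraries (blue), on a separate linear scale in each panel, with bars for the mean and SD (n = 3) except for *sut4*. Only *Glut1*, at 60.5 to 64.8 CPM in the knockouts and 48.1 to 49.8 CPM in the controls, shows no overlap between the genotypes.

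To compare levels between genes, CPM was divided by the length of all annotated exons of a gene in kb, which understates a gene with many partly used exons such as *Glut1* (10933 bases). The order from high to low was *sut1*, *Tret1-1*, *Glut1*, *sut2* and then the 3 genes at the edge of detection, in both genotypes. *sut1* averaged 87.6 CPM per kb in the knockouts (range 76.1 to 94.1) and 96.3 in the controls (93.6 to 101). *Tret1-1* averaged 59.7 CPM per kb in the knockouts (50.1 to 69.9) and 62.0 in the controls (61.4 to 63.1). *Glut1* averaged 5.78 CPM per kb in the knockouts (5.53 to 5.93) and 4.49 in the controls (4.40 to 4.56), and *sut2* averaged 2.07 in the knockouts (1.77 to 2.30) and 1.90 in the controls (1.24 to 2.48). None of these 4 ranges overlapped with its neighbour in the order within either genotype. *sut3* at 0.147 to 0.271 CPM per kb and *Tret1-2* at 0.0419 to 0.291 overlapped in the knockouts, and their places in the order are not distinguishable.

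Nearly all counts of the 7 transporters came from 3 genes. Of their summed level in CPM, not divided by length, *sut1* held 37.7% to 48.4% in each library, *Tret1-1* 36.7% to 48.4% and *Glut1* 9.49% to 13.9%. The *Glut1* share was 12.3%, 13.9% and 13.3% in the knockouts, against 10.1%, 9.49% and 10.2% in the controls. The sum itself was 480 ± 16.7 CPM in the knockouts and 494 ± 11.6 CPM in the controls (SD, n = 3 each, not tested). Set against *Tret1-1* in the same library, *Glut1* counts were 30.3%, 37.9% and 27.5% in the knockouts and 23.6%, 22.6% and 24.1% in the controls. The ratio needs no scaling between libraries, and the genotypes did not overlap in it. It rests on the same *Glut1* counts as the comparison above, so it is not separate evidence.

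The transporters lie in groups along chromosome arm 2R. *sut1*, *sut2* and *sut3* follow each other on the plus strand with 244 and 184 bases between them and no gene in between. Per exon length, the level of *sut2* was 1.31% to 2.65% of that of *sut1* over the 6 libraries, and the level of *sut3* was 0.0535% to 0.352%. *Tret1-1* and *Tret1-2* also lie side by side, 1152 bases apart, and the level of *Tret1-2* per exon length was 0% to 0.492% of that of *Tret1-1*. Neighbours in both groups therefore differed in level by far more than the genotypes did. Both *Tret1* genes lie within the span of *Roc2* on the opposite strand, which had 73 to 125 counts per library, and each of the 7 transporters had 0 to 5 counts per library on its opposite strand. Only uniquely placed read pairs were counted, so that pairs shared by close paralogs would be missing from both.

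Genes with the pattern nearest to a transporter were found by the root mean square difference of log2 CPM over the 6 libraries, each gene centred on its own mean. Nearest to *Glut1* among 9937 candidate genes were *Syngr*, the gene of the synaptic vesicle protein synaptogyrin (0.0143), and *ana* (0.0228). Nearest to *sut1* were *Fntb* (0.0362) and *Patj* (0.0375), and nearest to *Tret1-1* were *Vps52* (0.0424) and *CG9372* (0.0505). *sut2* was nearest to *CG6870* (0.0894) and *CG31076* (0.114). For *sut3* (*Dh44-R1* at 0.100, *Kif19A* at 0.102) and *Tret1-2* (*CG6271* at 0.116, *CG14860* at 0.241) the likeness is largely set by the prior count of 2 added to low counts. These differences describe 6 libraries and carry no test.

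**Figure D2:**
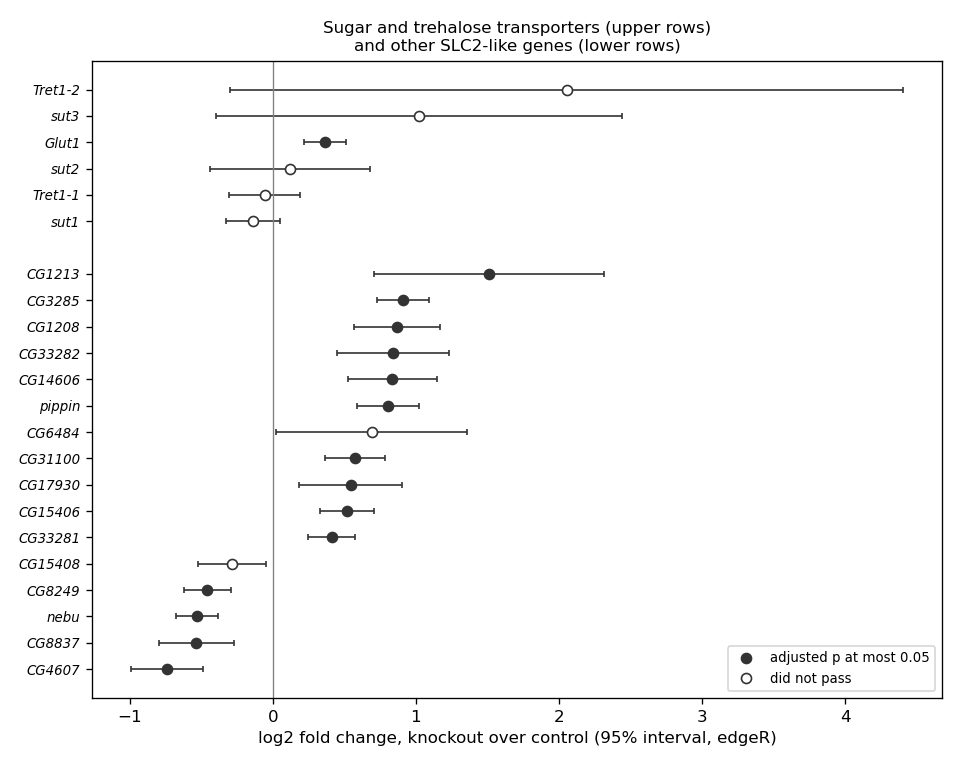
Log2 fold change, knockout over control, with its 95% interval from edgeR for the 6 transporters tested (upper rows) and 16 other SLC2-like genes (lower rows), filled where the adjusted p was at most 0.05. *Glut1* is the single filled point above, at 0.36, while 10 of the lower rows are filled to the right of 0 and 4 to the left.

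Other SLC2-like genes changed in both directions. A list of 20 names held 19 genes, since *nebu* and *CG10960* are 1 gene, and 16 of them had at least 12 counts. Of these 16, 10 were higher and 4 lower in the knockouts and 2 did not pass, where 22.2% of all tested genes were higher and 26.0% lower. Only *CG1213* passed with a change of at least 2-fold. Every knockout lay above every control for 11 of the 16 and below every control for the other 5. Over all tested genes, the shares were 29.4% above and 31.5% below. The median log2 fold change was 0.56, and the summed level was 773 ± 13.5 CPM in the knockouts and 640 ± 6.95 CPM in the controls (SD, n = 3 each, not tested). Most of these genes are known only as predicted sugar transporters. *Glut3* had 0 counts, *CG14605* had 7 and *CG17929* had 5 over the 6 libraries, and the difference between this list and the 7 transporters was not tested.

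*CG1213* had the largest change of the genes of the family that passed. Its level was 117, 143 and 170 CPM in the knockouts, against 40.3, 40.0 and 70.2 CPM in the controls. The lowest knockout was well above control replicate 3, the highest control, and the log2 fold change was 1.51 (SE 0.30, adjusted p = 0.015 by edgeR). Without knockout replicate 3 its adjusted p was 0.0501, and without replicate 3 of both genotypes the log2 fold change was 1.68 (adjusted p = 2.1e-05). *CG1208*, its neighbour on 3R with 2387 bases between them, had 73.9, 62.2 and 51.5 CPM in the knockouts, against 32.3, 37.4 and 33.0 CPM in the controls (log2 fold change 0.87, adjusted p = 0.00099 by edgeR).

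*pippin*, which encodes a carbohydrate transporter known from glia, averaged 30.6 ± 2.57 CPM in the knockouts and 17.5 ± 1.60 CPM in the controls. Its log2 fold change was 0.81 (SE 0.10, adjusted p = 0.00015 by edgeR). *CG14606* averaged 28.0 ± 5.53 CPM in the knockouts and 15.7 ± 1.05 CPM in the controls (log2 fold change 0.84). *CG31100* averaged 59.9 ± 7.56 CPM in the knockouts and 40.2 ± 0.975 CPM in the controls (0.58). *CG17930* averaged 22.7 ± 5.32 CPM in the knockouts and 15.6 ± 0.87 CPM in the controls (0.55, adjusted p = 0.0205 by edgeR), and its adjusted p was 0.0719 without control replicate 1 and 0.067 without control replicate 3. All 4 genes, named because they passed as higher, were higher in every knockout than in every control. Of all tested genes, 29.4% showed this.

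The 4 genes that were lower fell by 0.46 to 0.74 on the log2 scale. *nebu*, which had the highest level per kb of the 19 in the controls (70.5 CPM per kb), had 162, 175 and 159 CPM in the knockouts, against 236, 250 and 231 CPM in the controls (log2 fold change -0.53, SE 0.07, adjusted p = 0.00018 by edgeR). *CG4607* averaged 15.5 ± 2.11 CPM in the knockouts and 26.0 ± 2.39 CPM in the controls (-0.74). *CG8249* averaged 34.6 ± 1.86 CPM in the knockouts and 47.5 ± 1.54 CPM in the controls (-0.46). *CG8837* averaged 9.14 ± 0.565 CPM in the knockouts and 13.3 ± 1.40 CPM in the controls (-0.53). Each of these 4 passed under all 14 alternatives.

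A group of 6 family members on the plus strand of 2L, from *CG15406* at 3309222 to *CG15408* at 3334790, included genes that changed in both directions. In order along the chromosome, the log2 fold changes were 0.52 for *CG15406*, -0.53 for *CG8837*, 0.41 for *CG33281*, 0.84 for *CG33282*, 0.91 for *CG3285* and -0.29 for *CG15408*, of which the last did not pass (adjusted p = 0.0502 by edgeR). *CG3285* had 33.4, 35.9 and 36.0 CPM in the knockouts, against 20.0, 17.8 and 18.2 CPM in the controls. *CG33281* averaged 81.0 ± 4.84 CPM in the knockouts and 60.9 ± 2.66 CPM in the controls. *CG33282* averaged 19.1 ± 3.39 CPM in the knockouts and 10.7 ± 2.14 CPM in the controls. *CG15406* averaged 30.8 ± 1.60 CPM in the knockouts and 21.4 ± 1.58 CPM in the controls, and lies within the span of *CG3277* on the same strand. *CG6484* on 2R, the other gene that did not pass, lay at 0.69 on the log2 scale (adjusted p = 0.082 by edgeR), with control replicate 1 at 20.3 CPM, near the lowest knockout at 20.8 CPM.

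**Figure D3:**
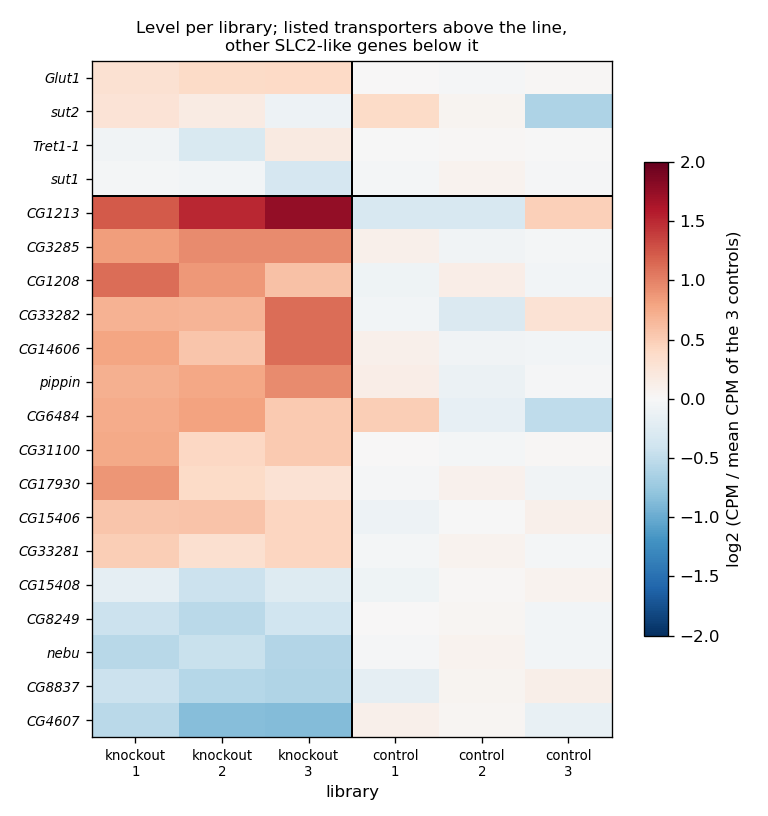
Level of each gene with at least 100 counts in the 3 knockout libraries (left) and 3 control libraries (right), as the log2 ratio of its CPM to the mean CPM of the controls, from -2 (blue) to 2 (red). *Glut1*, *sut2*, *Tret1-1* and *sut1* stand above the line, and of the 16 genes below it 11 are higher in every knockout than in every control and 5 are lower. Over all tested genes, 29.4% are higher and 31.5% lower in this way.

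Carriers of other families and the enzymes around these transporters were described in the same way. *Slc45-1*, a sucrose transporter, had 169, 166 and 216 CPM in the knockouts, against 146, 132 and 111 CPM in the controls (log2 fold change 0.50, adjusted p = 0.0185 by edgeR). *slv*, the fly SWEET transporter and neighbour of *sut1*, averaged 9.65 ± 0.669 CPM in the knockouts and 12.4 ± 0.364 CPM in the controls (-0.36, adjusted p = 0.0188 by edgeR), and did not pass by DESeq2. *MFS3*, another carrier, did not pass (0.11), so that of these 3 genes 1 was higher and 1 lower, against 22.2% and 26.0% of all tested genes.

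Of 5 genes of trehalose synthesis and breakdown, 4 were tested, of which 1 was higher, 1 lower and 2 did not pass. These counts are near the shares of all tested genes, 22.2% higher and 26.0% lower. *Treh*, the gene of trehalase, had 271, 267 and 263 CPM in the knockouts, against 142, 153 and 159 CPM in the controls. The trehalase groups were far apart, and the log2 fold change was 0.82 (SE 0.06, adjusted p = 2.3e-05 by edgeR). *CG5177*, a predicted trehalose phosphatase, had 910 to 947 CPM in the knockouts and 1148 to 1176 CPM in the controls (-0.34, adjusted p = 0.00073 by edgeR). *Tps1*, which makes trehalose phosphate, and *CG5171* did not pass (-0.09 and -0.13). *CG6262* had 1 count in all.

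The 2 hexokinase genes tested, *Hex-A* and *Hex-C*, did not pass, with log2 fold changes of -0.07 (95% interval -0.24 to 0.11) and 0.04 (-0.13 to 0.22). *Hex-t1* and *Hex-t2* had 4 and 6 counts in all. Of 7 genes listed for the polyol pathway, which turns glucose into sorbitol and fructose, 0 were higher, 5 lower and 2 did not pass, where 22.2% of all tested genes were higher and 26.0% lower. Whether each listed gene acts in this pathway was not tested. The 5 were *Sodh1* (sorbitol dehydrogenase, -0.52), *Akr1B* (aldose reductase, -0.21), *CG10638* (-0.44), *CG12766* (-0.67) and *CG9436* (-0.23). DESeq2 called 3 of the 7 lower and limma-voom 4, and by each of the 3 tools 0 were higher, also at an unadjusted p under 0.05.

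Markers of tissues in which transporters of this kind are known were counted as well, and their part in the results above was not tested. The counts by edgeR are to be read against the 22.2% of all tested genes that were higher and the 26.0% that were lower, and those of the hemocyte, Malpighian tubule and fat body markers lay near these shares. Of 9 glial markers, 0 were higher, 5 lower and 4 did not pass, and their sum was 688 to 720 CPM in the knockouts and 818 to 843 CPM in the controls. *SPARC* (mean 262 CPM in the knockouts, 336 CPM in the controls) and *Gs2* (241 and 252 CPM) made up most of this sum. How far either gene is specific to glia in whole larvae was not tested, so the sum is not a measure of glia alone. The 5 lower were *repo* (log2 fold change -1.57), *wrapper* (-1.50), *Mdr65* (-0.60), *SPARC* (-0.36) and *nrv2* (-0.33). The 4 others were *alrm* (-0.23), *Gs2* (-0.06), *moody* (0.07) and *Eaat1* (0.03). None of the glial markers was higher by DESeq2, limma-voom or at an unadjusted p under 0.05. *repo*, the defining gene of glia, was at 1.79 to 2.70 CPM in the knockouts and 5.66 to 7.81 CPM in the controls. Of 7 neuronal markers, 6 were higher and 1 did not pass, with a sum of 507 to 602 CPM in the knockouts and 389 to 459 CPM in the controls. The 1 that did not pass was *elav* (log2 fold change 0.04, adjusted p = 0.76 by edgeR), at a mean of 30.3 CPM in the knockouts and 29.6 CPM in the controls. The 6 higher were *brp* (0.49), *Syn* (0.47), *Syt1* (0.44), *para* (0.44), *fne* (0.37) and *nSyb* (0.28). Whether neuronal content differed was not tested. Of 8 midgut markers, 5 were higher, 1 lower and 2 did not pass, with a sum of 1846 to 2344 CPM in the knockouts and 1549 to 1798 CPM in the controls. This sum joins opposite changes. *betaTry* averaged 585 CPM in the knockouts and 167 CPM in the controls, and the lower one, *LManVI*, 377 and 743 CPM. The other higher ones were *alphaTry* (log2 fold change 1.27), *Myo31DF* (0.81), *Myo61F* (0.69) and *mex1* (0.48). *Jon65Aiii* (0.24) and *cad* (0.22) did not pass. Of 8 fat body markers, 5 were tested, of which 1 was higher and 1 lower, with a sum of 8328 to 10392 CPM in the knockouts and 10339 to 12038 CPM in the controls. The lower one, *apolpp*, averaged 5160 CPM in the knockouts and 6903 CPM in the controls. *Desat1*, the higher one, averaged 1238 and 910 CPM. *FASN1* (log2 fold change -0.10), *Lsp1alpha* (1.05) and *Lsp1beta* (3.00) did not pass. *Fbp1*, *Fbp2* and *Lsp2* were at or near 0. Of 5 tracheal markers, 3 were higher and 2 did not pass, with a sum of 3044 to 3653 CPM in the knockouts and 1560 to 2342 CPM in the controls. *verm*, *serp* and *Gasp* made up most of this sum. *trh* averaged 28.8 CPM in the knockouts and 21.7 CPM in the controls, and *btl*, which did not pass, 10.7 and 10.2 CPM. Of 6 Malpighian tubule markers, 1 was higher and 1 lower, with a sum of 255 to 319 CPM in the knockouts and 224 to 271 CPM in the controls. The higher one, *Uro*, averaged 131 CPM in the knockouts and 50.6 CPM in the controls, while 4 of the 6 had a negative log2 fold change. Of 7 muscle markers, 3 were lower by edgeR and 1 by DESeq2, with a sum of 49018 to 54906 CPM in the knockouts and 55519 to 57589 CPM in the controls. Of 5 hemocyte markers, 1 was higher and 1 lower, with a sum of 161 to 184 CPM in the knockouts and 172 to 177 CPM in the controls. By DESeq2, 0 hemocyte markers were lower (1 at an unadjusted p under 0.05), and 2 fat body, 6 midgut and 4 tracheal markers were higher.

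**Figure D4:**
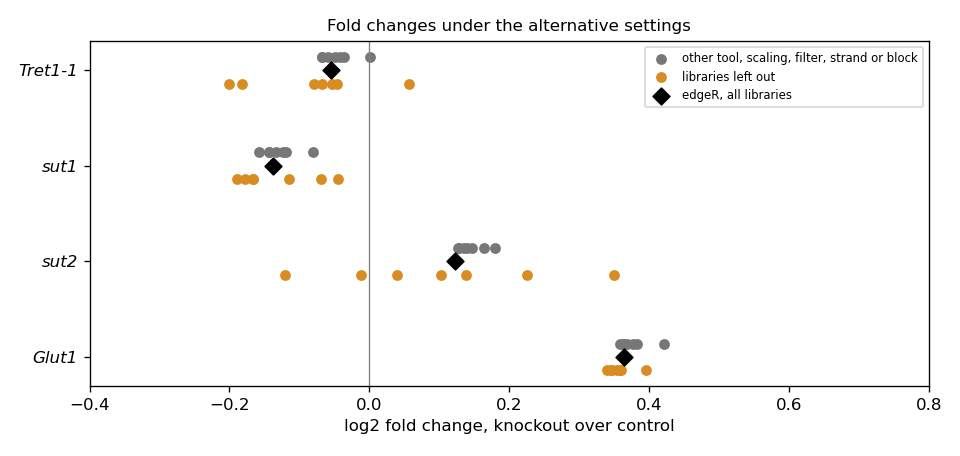
Log2 fold change, knockout over control, of the 4 transporters with more than 100 counts, with all libraries in edgeR (diamond), under another tool, scaling, filter, strand or block (grey) and with libraries left out (orange). *Glut1* stayed between 0.34 and 0.42 and *sut1* below 0, while *Tret1-1* (-0.20 to 0.06) and *sut2* (-0.12 to 0.35) had values on both sides of 0.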

How the data were processed

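For each of 6 libraries the authors deposited raw counts of read pairs per gene, not normalized, in STAR's layout with unstranded and strand-specific columns. STAR and BDGP6 are named, without versions, in the submitters' processing notes. The methods text describes another route, by pseudo-alignment. The counts of the strand that the stranded TruSeq kit yields were analysed. Pairs on the opposite strand made up 2.50% to 2.55%. A further 486 lines that name no gene (0.0329% to 0.0461% of the pairs) were left out. Places, exon lengths and symbols come from the BDGP6.54 annotation.

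Groups follow the genotype label of each sample. Genes with at least 12 counts over 6 libraries entered edgeR 4.0.16 (TMM factors of 0.973 to 1.03, robust quasi-likelihood test, adjustment by Benjamini-Hochberg over all 11422 genes) in R 4.3.3. The SE is the log2 fold change divided by the root of F, and intervals are at 95%. Intervals of count ratios are exact and, like the floor of 3 counts, cover counting error only. The code was tested on simulated data. Alternatives were DESeq2 1.42.0, limma-voom (limma 3.58.1), library totals without TMM, no filter, filterByExpr, unstranded counts, a replicate block, each library left out and replicate 3 of both genotypes left out.

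The 7 transporters, the gene lists and the markers were chosen with earlier results of these data known. All 7 transporters and each other listed transporter, carrier or enzyme gene that passed are named, and markers are given as counts and sums, with tested genes that did not pass where a list is described in full. For each transporter with at least 12 counts, the 2 genes nearest in pattern are named, among genes with a mean of at least 1 CPM. The choice to name or give values of single glial, neuronal, midgut, fat body, tracheal and Malpighian tubule markers was made after their values were seen.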

Additional observations from a re-analysis of the deposited data

How the results depend on the processing

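Under all 14 alternatives, 1 of the transporters (*Glut1*) was higher and 0 were lower. Of the other SLC2-like genes, 9 to 11 were higher and 4 to 5 lower over these alternatives, and 9 to 10 higher with a single library left out. With the replicate block, 1 transporter was higher and 0 lower, and of the other SLC2-like genes 11 were higher and 4 lower. Deviations of same-numbered libraries correlated at -0.293, -0.103 and -0.306 for replicates 1, 2 and 3, so they did not deviate alike. With 3 libraries per genotype, these values cannot decide whether the numbers pair the samples. *CG1213* missed the threshold without knockout replicate 3 (adjusted p = 0.0501 by edgeR), and *CG17930* without control replicate 1 (0.0719) or 3 (0.067). *CG6484* passed under DESeq2 (adjusted p = 0.0041), limma-voom (0.028), the replicate block (0.0238) and without control replicate 1 (0.0015), and *CG15408* under limma-voom (0.049) and with unstranded counts (0.0466). *slv* did not pass under DESeq2, which called 3 genes of the polyol list lower where edgeR called 5. The causes were not tested. *Tret1-2* and *sut3* were not tested where a filter or a left-out library took them under the count minimum (11 and 13 alternatives gave values), and *sut4* was given as counts only. Library totals without TMM moved the median log2 fold change of all genes by 0.057. Depth limits *sut3*, *Tret1-2* and *sut4*, where 1 count is a large part of the value.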
